A study of Arabidopsis thaliana with 163 samples.

Results

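The 46 genes described here are the nuclear genes of *Arabidopsis thaliana* that encode light-harvesting proteins, subunits of photosystem I and photosystem II, the small subunit of Rubisco and Rubisco activase. They were taken by name from a list of loci, and all 46 were found among the 27444 nuclear protein-coding genes of the TAIR10 annotation. A gene was counted under a list when a domain or peak overlapped its body or the 1 kb upstream by at least 1 bp. By role, 6 genes encode the antenna of photosystem I (LHCA), 14 the antenna of photosystem II (LHCB), 12 subunits of photosystem I (PSA), 9 subunits of photosystem II (PSB) and 5 the Rubisco small subunit (RBCS) or the activase (RCA).

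The study set PHILO ChIP-seq, a plate-based low-input protocol, against regular ChIP-seq and followed histone acetylation after jasmonic acid (JA), and it holds 163 samples in 56 groups. All material used here came from 10-day-old whole seedlings in the Col-0 background, treated for 2 h with gaseous methyl jasmonate where JA is named. The groups behind the lists were Col-0 H3K9ac after 2 h JA and its control in a time course (3 libraries each), the same pair in a large-scale experiment (3 each), MYC2 after 2 h JA and its control (2 each), and untreated Col-0 profiled by PHILO for H3K9ac, H3K4me3, H3K36me3 and H3K27me3 (3 each), by regular ChIP-seq for H3K9ac (2) and with IgG. MYC2 was the FLAG-tagged protein expressed from its own promoter in the *myc2* mutant, so that list speaks for the transgenic line and not for Col-0, and it does not itself state which sides were compared. The MYC2 libraries and 1 IgG library were grouped by their titles, since their other labels name the H3K9ac antibody, untreated material and, for MYC2 too, plain Col-0, so values of the MYC2 list rest on the titles and the study's methods.

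H3K9ac and H3K4me3 are found at the start of active genes, H3K36me3 over transcribed bodies and H3K27me3, the Polycomb mark, at silenced genes. JA is a wound and defence hormone whose signalling frees the transcription factor MYC2 from its repressors, and JA treatment is known to lower transcripts of many photosynthesis genes. Light-harvesting proteins bind chlorophyll and pass excitation to the reaction centres, Rubisco fixes CO2, and the activase frees its active sites. In green seedlings these nuclear genes are among the most strongly transcribed, and their promoters are known for light-responsive elements such as the G-box and the I-box.

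The sequences shown here are 4 promoters, read from the RefSeq TAIR10.1 assembly. They run from 250 bases before to 50 bases after the annotated start, 5′ to 3′ in the direction of transcription. RCA and LHCB4.2 are shown because their acetylation fell most after JA. RBCS2B and PSBQ1 are examples of members with a called loss and both elements, as are LHCB4.1 and PSAH2, which are not shown. Capitals mark the G-box CACGTG and the I-box GATAAG on either strand.
RCA promoter, chr2:16573643-16573942, minus strand: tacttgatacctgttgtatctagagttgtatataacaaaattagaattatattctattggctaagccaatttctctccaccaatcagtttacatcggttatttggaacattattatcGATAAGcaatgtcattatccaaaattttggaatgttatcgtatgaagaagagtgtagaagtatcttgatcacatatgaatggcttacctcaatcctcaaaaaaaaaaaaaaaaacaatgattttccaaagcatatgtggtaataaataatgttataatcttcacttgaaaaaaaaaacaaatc
LHCB4.2 promoter, chr3:2717307-2717606, plus strand: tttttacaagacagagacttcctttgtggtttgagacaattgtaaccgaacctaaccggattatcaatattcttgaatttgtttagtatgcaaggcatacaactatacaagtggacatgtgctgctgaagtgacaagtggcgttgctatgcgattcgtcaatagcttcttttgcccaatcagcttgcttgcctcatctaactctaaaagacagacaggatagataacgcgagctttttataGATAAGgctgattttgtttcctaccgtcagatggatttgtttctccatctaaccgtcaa
RBCS2B promoter, chr5:15382022-15382321, minus strand: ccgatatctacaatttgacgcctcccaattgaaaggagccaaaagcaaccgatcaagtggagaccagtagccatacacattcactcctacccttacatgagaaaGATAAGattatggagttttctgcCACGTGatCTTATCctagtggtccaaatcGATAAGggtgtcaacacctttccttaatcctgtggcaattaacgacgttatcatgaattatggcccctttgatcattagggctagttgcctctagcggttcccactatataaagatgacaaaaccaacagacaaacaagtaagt
PSBQ1 promoter, chr4:11334102-11334401, plus strand: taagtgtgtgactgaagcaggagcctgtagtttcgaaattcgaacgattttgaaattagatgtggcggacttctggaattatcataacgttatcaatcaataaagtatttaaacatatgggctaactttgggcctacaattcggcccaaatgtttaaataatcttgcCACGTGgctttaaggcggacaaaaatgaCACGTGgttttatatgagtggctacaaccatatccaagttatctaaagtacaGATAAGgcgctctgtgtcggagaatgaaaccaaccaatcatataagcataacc

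In RBCS2B the G-box begins 123 bases before the start, between I-boxes that begin 146, 115 and 94 bases before it. PSBQ1 has G-boxes 83 and 55 bases before the start and an I-box 3 bases before it, LHCB4.2 has an I-box 9 bases before the start, and RCA has a single I-box 133 bases before it. The G-box was found in 15 of the 46 promoters (32.6%), against 7.68% of all 27444 promoters of that length, and the I-box in 20 (43.5%), against 14.6%. Both elements occurred together in 8 members (17.4%), LHCA4, LHCB4.1, LHCB6, PSAH1, PSAH2, PSBQ1, PSBQ2 and RBCS2B, against 1.29% of all promoters. Of these, LHCB4.1, PSAH2, PSBQ1 and RBCS2B had a called loss after JA, and LHCA4, LHCB6, PSAH1 and PSBQ2 had none. Among the 23 members that lost acetylation after JA, 9 held a G-box and 10 an I-box, and among the other 23 the counts were 6 and 10. The TATAAA element was present in 50% of members and 52.1% of all promoters, and CCAAT in 73.9% and 51.6%. These are matches of letters in a fixed window, not binding sites.

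The pooled H3K9ac list held 24527330 reads in domains, and each untreated H3K9ac library between 8986137 and 13807286. Where a domain of another IgG-based list had the same start and end as a pooled H3K9ac domain, its IgG count was the same in every case, so the 5 library lists and the 4 mark lists share their IgG reads. The pooled H3K9ac list, named as PHILO data, was more densely filled than the library lists. Its domains reached 0.784 reads per position and strand, and those of the libraries 0.484 to 0.634. Whether this density lowered the pooled folds, and which libraries were pooled, was not tested. In its folds the pooled list followed the regular libraries more closely than the PHILO libraries. Over identical domains its log2 fold had a Spearman correlation of 0.979 and 0.970 with the regular libraries and of 0.936, 0.904 and 0.905 with the PHILO libraries, whose folds were 0.63 to 0.70 higher on the log2 scale, and where the order of genes differs between lists this is said beside it. Of 7 root markers, 2 had an H3K9ac and 6 an H3K27me3 domain, and of 6 seed and floral genes the counts were 1 and 6.

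All 46 members carried H3K9ac and all 46 carried H3K4me3, against 70.8% and 67.8% of all nuclear protein-coding genes. H3K36me3 was present at 34 members (73.9%), against 60.7% of all genes. H3K27me3 was present at 8 (17.4%), against 38.2%. Among the 19437 genes with a pooled H3K9ac domain, H3K4me3 was found at 93.2%, H3K36me3 at 81.9% and H3K27me3 at 27.2%. Each of the 46 had an H3K9ac domain in each of the 5 single libraries too.

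**Figure D1:**
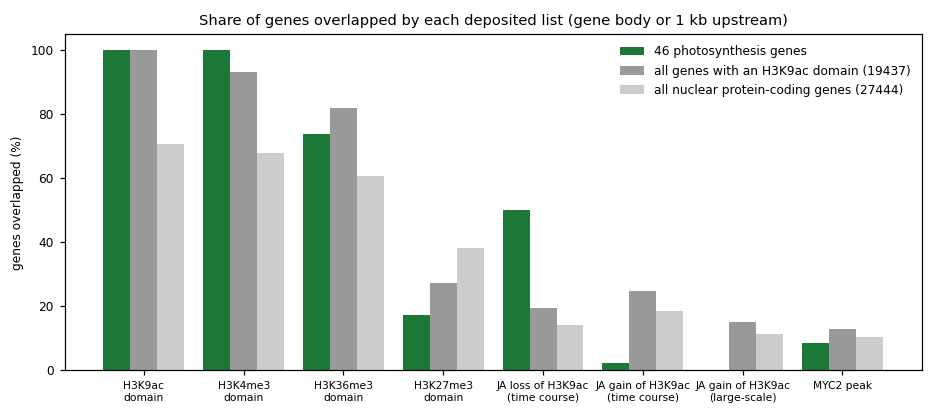
Share of genes, in percent, overlapped by each deposited list over the gene body or 1 kb upstream, for the 46 photosynthesis genes (green), all genes with a pooled H3K9ac domain (dark grey) and all nuclear protein-coding genes (light grey). Members reach 100% for H3K9ac and H3K4me3 and 50% for the JA loss of H3K9ac, but 2.17% and 0% for the gains.

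H3K9ac domains at the members were longer than at other genes. The median pooled H3K9ac domain at a member was 4600 bp wide, against 1800 bp over all genes with a domain, and it covered 100% of the gene body in the median member, against 54.3%. The log2 fold over IgG had a median of 1.24 (range 0.84 to 1.76) at members and 1.22 over all genes, and 26 of 46 members lay above the median of all genes. In the single libraries the medians at members and over all genes were 2.104 and 1.91, 2.21 and 1.99, and 2.28 and 2.00 in the PHILO lists, with 29, 30 and 34 members above the gene median, and 1.50 and 1.41, and 1.51 and 1.47 in the regular lists, with 24 and 25 above it. H3K4me3, usually confined to the first part of a gene, covered 94.7% of the body of the median member, against 35.1%. Its median log2 fold was 2.88, against 2.66. The shares of the body covered by H3K9ac and H3K4me3 depend on gene length. Only 2 of 46 members were 2000 bp or longer, against 11612 of the 18110 genes that carry both marks. Coverage was not compared among genes of like length. H3K36me3 folds were lower than usual where present, with a median of 1.63, against 1.79, and 7 of 34 members lay above the median of all genes. H3K9ac domains often reached into neighbouring genes, so a domain's width and fold are not those of a single gene.

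Within each role the level of H3K9ac differed between genes, but the order depended on the list. In the pooled list RBCS1A was the highest Rubisco gene at a log2 fold of 1.32, and it was highest in all 5 single libraries too. RBCS3B was lowest in the pooled list at 0.89, whereas in the PHILO libraries RCA was lowest at 1.62, 1.58 and 1.64. In the photosystem I antenna the pooled list had LHCA3 highest at 1.49 and LHCA2 lowest at 1.05, but LHCA6 was lowest in all 3 PHILO libraries at 2.04, 1.85 and 1.91, where LHCA2 had 2.17, 2.29 and 2.51. LHCB5, which encodes the minor antenna protein CP26, was highest in the photosystem II antenna at 1.60 in the pooled list and also in PHILO library 1 and both regular libraries. In photosystem II PSBO1, the manganese-stabilising protein of the water-splitting complex, had 1.63 in the pooled list and was highest in 4 of the 5 single libraries, and PSBP1, another protein of that complex, had 1.098 and was lowest in 4 of 5.

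The extremes over all 46 genes in the pooled list were not those of the PHILO libraries. PSAH1, which encodes a photosystem I subunit where LHCII docks, was highest in the pooled list at 1.76 and in both regular libraries at 1.91 and 2.02. In the PHILO libraries PSAH1 had 2.49, 2.55 and 2.44, and the highest genes were PSBO1 at 2.54, PSAD1 at 2.701 and RBCS1A at 2.76. LHCB2.3, a gene of the major trimeric antenna LHCII, was lowest in the pooled list at 0.84, with 529 H3K9ac and 59.6 IgG reads per kb of its domain. In the PHILO libraries its log2 folds lay in the middle of the 46, at ranks 29, 32 and 29 counted from the lowest. In the regular libraries it stood at ranks 4 and 1. Its domain was 2600 bp wide in the pooled list, 800 to 1000 bp in PHILO lists and 2000 and 2400 bp in regular lists. PSAE2, a photosystem I subunit on the stromal side, was lowest in its role in the pooled list at 0.92, and PSAE1 took that place in all 3 PHILO libraries. Of the 9 lowest members of the pooled list, all with a log2 fold under 1, 7 were LHCB1 or LHCB2 genes. Among the 9 lowest of each single library these 8 genes numbered 4, 5 and 3 in the PHILO libraries and 8 and 8 in the regular libraries. LHCB1.1, LHCB1.2 and LHCB1.3 lie side by side on chromosome 1 and share an H3K9ac domain of 8000 bp, and LHCB1.4 with LHCB1.5 share one of 5000 bp, so these 5 genes give 2 measurements. LHCB1.1, LHCB1.2 and LHCB1.3 also have 62.6% to 68.4% of their bodies in another of these 3 genes at 95% identity or more, so reads cannot be placed with certainty among them. No other member had such a copy of 100 bp or more.

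H3K36me3 was absent from a distinct set. The 12 members without a domain were all 5 LHCB1 genes, all 3 LHCB2 genes, LHCB4.3, RBCS1A, RBCS1B and RBCS2B, named here after their values were seen. Each carried H3K9ac and H3K4me3. RBCS3B, the neighbour of RBCS2B, had H3K36me3 at a log2 fold of 0.66, the lowest of the 34. The 12 had a median body of 1313 bp and 2 exons, and the 34 had 1441.5 bp and 3 exons. Within genes that carry H3K9ac and H3K4me3, H3K36me3 was found at 5 of 10 members with a single exon, against 69.2% of such genes, at 21 of 28 members with 2 or 3 exons, against 81.4%, and at 8 of 8 members with 4 or more, against 93.4%. Median pooled H3K9ac log2 folds were 0.96 at the 12 and 1.33 at the 34, and the median was also lower at the 12 in each single library, with 1.64, 1.79 and 2.04 at the 12 and 2.19, 2.27 and 2.31 at the 34 in the PHILO libraries. The median H3K4me3 log2 folds were 2.66 and 2.93.

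**Figure D2:**
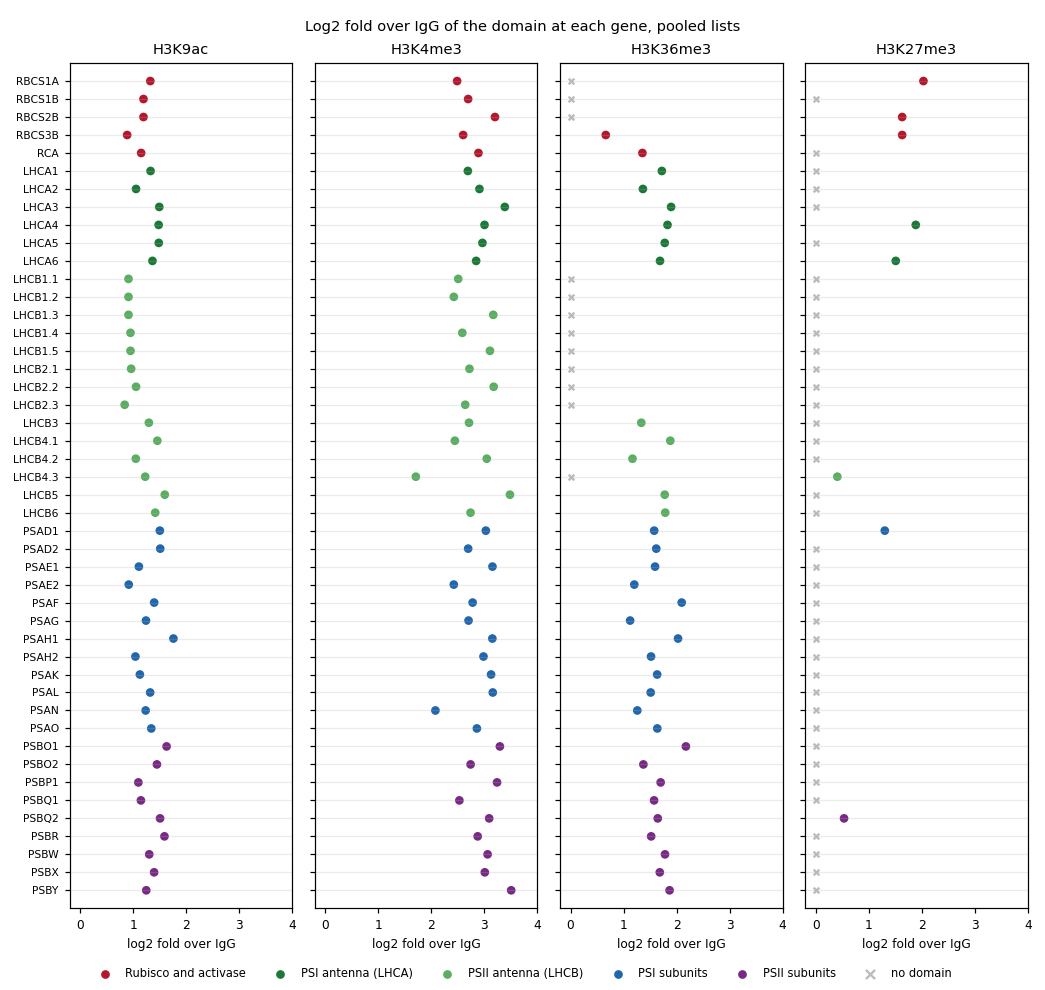
Log2 fold over IgG of the domain with the longest overlap at each of the 46 genes, 1 panel for each mark, coloured by role, with grey crosses at 0 for genes without a domain. H3K9ac and H3K4me3 are complete, whereas the LHCB1 and LHCB2 genes and 3 of 4 RBCS genes have crosses for H3K36me3, and H3K27me3 is present at 8 genes.

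H3K27me3 lay over the gene body in 5 of the 8 members that had it. At RBCS2B it covered 93.9% of the body, with a log2 fold of 1.63. PSAD1, a subunit on which ferredoxin docks, had a domain of 600 bp inside its body at 1.302, and LHCA6 one of 400 bp at 1.51. PSBQ2, a protein of the water-splitting complex, and LHCB4.3 had weak domains at 0.53 and 0.41. At LHCA4, RBCS1A and RBCS3B the overlap was 33, 267 and 42 bp at the upstream edge alone, and the RBCS1A domain belonged to a stretch of 17800 bp that covers LBD40 and CYP735A2. All 8 also carried H3K4me3 and H3K9ac, and which cells of the seedling carry which mark cannot be told apart in pooled tissue.

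After 2 h of JA, called losses of H3K9ac overlapped 23 of the photosynthesis genes, from every role, and a called gain overlapped 1. In the time course these 23 of 46 members (50%) overlapped a called loss, against 14.2% of all genes and 19.6% of acetylated genes. By role the loss was called at 5 of 5 Rubisco genes, 2 of 6 LHCA genes, 5 of 14 LHCB genes, 5 of 12 photosystem I subunits and 6 of 9 photosystem II subunits. With an absolute log2 fold of at least 0.25 the count was 4 of 46 (8.7%), RCA, LHCB4.2, PSAD2 and LHCA2, against 6.52% of all genes. A gain was called at 1 member (2.17%), against 18.4% of all genes and 24.8% of acetylated genes. In the large-scale experiment 0 members overlapped a gain, against 11.3% and 15.1%. A list of losses from that experiment was not used here. The calls compare pooled libraries by epic2 at an FDR under 0.05, so each domain has 1 value per side and no replicate test.

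The changes were small. The median log2 of JA over control was -0.15 at the 23 members (range -0.33 to -0.10), and at the median member scaled reads fell by 10.1%. It was -0.23 over the 3884 genes with a loss, and 19 of 23 members changed less than that median gene. Counting error alone left 4 of the 23 with a 95% exact binomial interval that reached 0, LHCB2.3, PSAE2, PSAH2 and PSBQ1. The domains were called as losses from these same reads, so an interval clear of 0 is no further evidence of a change. Neither the intervals nor the changes were corrected for that choice. Spread between libraries is not in these intervals, and any PCR copies left among the reads would not be independent molecules. Control reads at the 23 members stood at 0.108 to 0.279 per position and strand. An effect of this density on the changes was not tested. Domains at members held many reads, so the shares were also taken among genes of like read number. In the highest of 4 equal groups of acetylated genes ranked by H3K9ac reads per domain, 16 of 32 members had a loss, against 35.5% of the genes, and in the next group 6 of 11, against 20.6%. For time course gains the counts in those 2 groups were 0 of 32, against 26%, and 0 of 11, against 25.1%.

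The largest fall among the 46 was at RCA (AT2G39730), a gene on the minus strand at chr2:16570746-16573692. Its loss domain, chr2:16571001-16573600, held 889 reads after JA and 1128 in the control, or 342 and 429 reads per kb once the control is scaled to the JA total, a log2 change of -0.33 (95% counting interval -0.46 to -0.20, FDR 2.6e-12). LHCB4.2 (AT3G08940, chr3:2717557-2718923, plus strand), which encodes a form of the minor antenna protein CP29, had 727 reads after JA and 916 in the control over chr3:2716001-2719400, a log2 change of -0.32 (interval -0.46 to -0.18). Both lay beyond the -0.23 of the median gene with a loss, and no other protein-coding gene lies in the RCA domain.

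All 4 RBCS genes lay under a loss. RBCS1A (AT1G67090) had 371 reads per kb after JA and 416 in the scaled control, a change of -0.16. RBCS1B (AT5G38430) and RBCS2B (AT5G38420) share a domain with 237 reads per kb after JA and 272 in the control, a change of -0.19. RBCS3B had 193 reads per kb after JA and 215 in the control, a change of -0.16. RBCS1B, RBCS2B and RBCS3B are neighbours on chromosome 5, so the 5 Rubisco genes give 4 domains and all 23 members give 22.

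In the photosystem I antenna LHCA2 (AT3G61470) had 446 reads per kb after JA and 532 in the scaled control, a change of -0.25, in a domain of 1600 bp that holds no other protein-coding gene. LHCA6 changed by -0.13 in a domain of 5800 bp that also covers LSM1A and 2 further genes. LHCA5 (AT1G45474) was the single gain among the 46. It had 572 reads after JA and 519 in the control over chr1:17179201-17180400, a log2 change of 0.16 whose counting interval of -0.02 to 0.33 reached 0, and no other protein-coding gene lies there. LHCA5 and LHCA6 are minor proteins that link photosystem I to the NDH complex.

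In the photosystem II antenna LHCB4.1, the second CP29 gene, had 423 reads per kb after JA and 477 in the scaled control, a change of -0.17 over 7000 bp. LHCB2.1, LHCB2.3 and LHCB3 changed by -0.15, -0.16 and -0.10. The 5 LHCB1 genes, LHCB2.2, LHCB4.3, LHCB5 and LHCB6 had no called change in either direction, and the lists give no value for them.

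The 5 photosystem subunits with a pair of genes among the members showed a called loss at a single gene of each pair. The loss was at PSAD2, PSAE2, PSAH2, PSBO2 and PSBQ1, and none was called at PSAD1, PSAE1, PSAH1, PSBO1 and PSBQ2. At PSAE2, PSAH2 and PSBQ1 the counting interval reached 0, with upper ends of 0.023, 0.0064 and 0.0033, so these calls were borderline. Outside these subunits, LHCB4.1 and LHCB4.2 both had a called loss and LHCB4.3 had none, and every RBCS gene had one. PSAD2 (AT1G03130) had 2079 reads after JA and 2512 in the control, a log2 change of -0.26 with the smallest FDR of all members, 7.4e-17, although its domain also covers RAB28 and 2 further genes. PSBO2 had 466 reads per kb after JA and 518 in the scaled control, a change of -0.15. Pooled H3K9ac at the genes with and without a loss was 1.51 and 1.50 for PSAD, 0.92 and 1.11 for PSAE, 1.04 and 1.76 for PSAH, 1.45 and 1.63 for PSBO, and 1.15 and 1.51 for PSBQ. The order within a pair was the same in all 5 single libraries for PSBQ alone. For PSAD and PSAE it was the reverse in the 3 PHILO libraries, and for PSAD in regular library 2 too. No test of a difference in JA change between partners was possible, since a gene without a call has no value. Of the genes without a pair, PSBR, a small subunit near the water-splitting complex, changed by -0.17 and PSAF, on which plastocyanin docks, by -0.15.

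**Figure D3:**
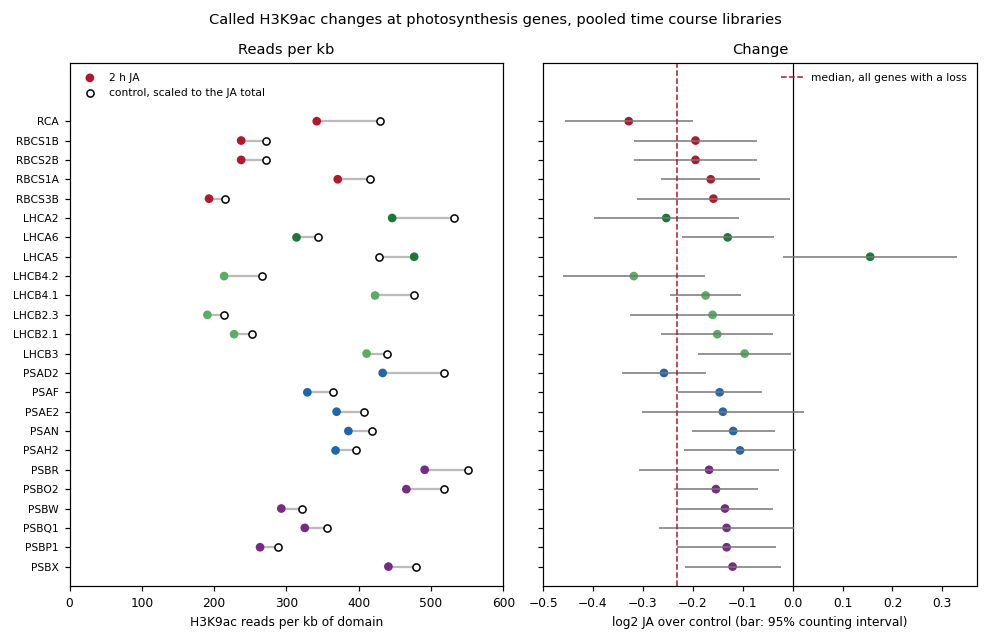
Left, H3K9ac reads per kb of domain after 2 h JA (filled) and in the control scaled to the JA total (open) at the 24 genes with a called change, pooled time course libraries. Right, log2 of JA over control with 95% counting intervals, and the median of all genes with a loss (dashed). All genes but LHCA5 lie left of 0, and RCA, LHCB4.2, PSAD2 and LHCA2 lie beyond the dashed line.

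The losses lay over the genes themselves. The loss domain overlapped the body at all 23 members, covered at least 50% of it at all 23 and the whole of it at 14. It included the annotated start at 18, and at LHCA2, RBCS1B, RCA, PSBQ1 and PSBR it began 87, 120, 92, 49 and 49 bp downstream. The median width was 4200 bp, against 2200 bp over all genes with a loss. Over all genes, 8.35% had at least 50% of the body covered by a loss, against 14.2% with any overlap of body or upstream. Cover of the body depends on gene length and domain width, and genes of like length were not compared. Shares over all genes were not taken for whole cover or for the start. In 4 members, LHCA2, LHCB2.1, RBCS3B and RCA, the domain held no other protein-coding gene, and in the other 19 the share of each gene in the change cannot be told apart. Median H3K9ac log2 folds in the untreated pooled list were 1.19 at the 23 members with a loss and 1.32 at the 23 without.

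**Figure D4:**
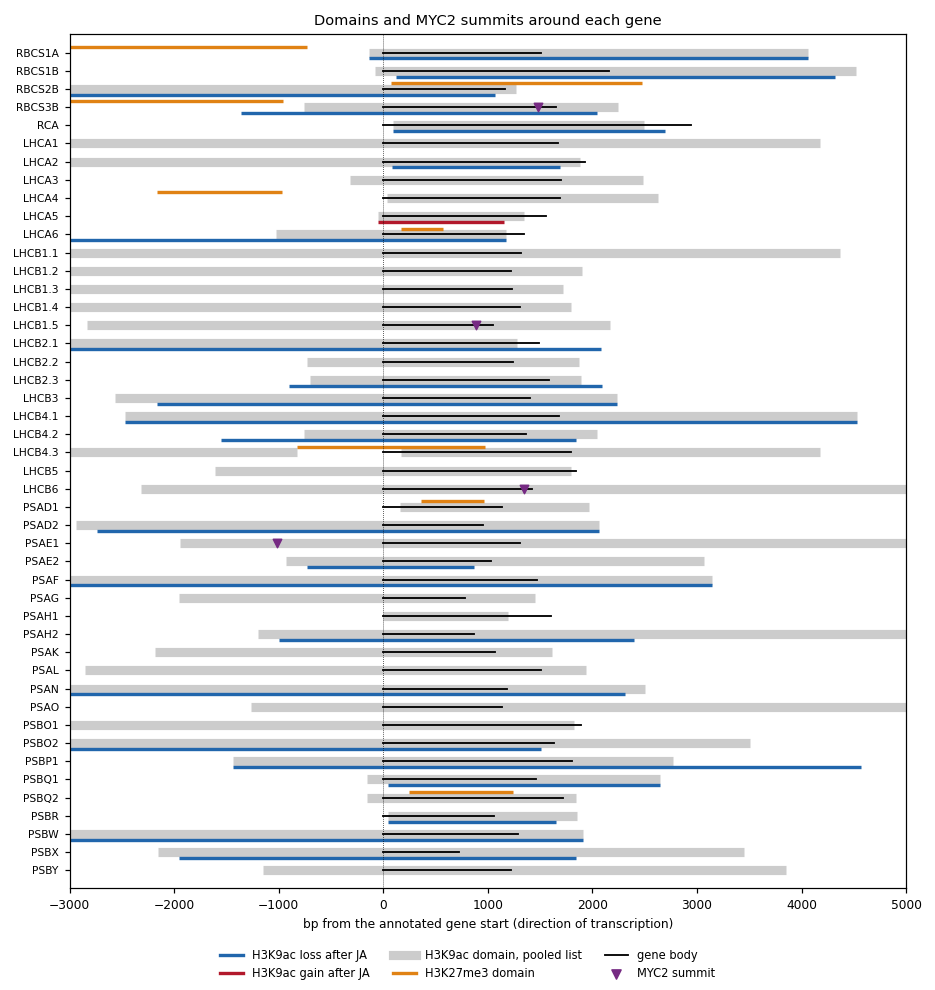
Position of called domains around each gene in bp from the annotated start, in the direction of transcription, with H3K9ac losses (blue) and the gain (red) below, pooled H3K9ac (grey), H3K27me3 (orange) above, the gene body (black line) and MYC2 summits (purple). Longer domains run past the edges. Blue bars cover the gene bodies, and no MYC2 summit lies within 1 kb upstream of a start.

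A MYC2 peak overlapped 4 members (8.7%), against 10.3% of all genes and 12.9% of acetylated genes, and RBCS3B alone had both a peak and a JA loss. The summits lay inside the body at LHCB1.5, LHCB6 (also over AT1G15810) and RBCS3B, 884, 1349 and 1481 bp downstream of the start, and 1013 bp upstream of the start at PSAE1. MACS2 folds were 2.04 at LHCB1.5, 2.49 at LHCB6, 2.56 at RBCS3B and 3.14 at PSAE1, against a median of 2.59 over 3464 peaks. The 61 bases around each summit follow on the strand of the gene, with the G-box CACGTG and its variants, CACGTT with the final base changed and then also the form CACATG with a changed core, on either strand, in capitals.
MYC2 summit at LHCB1.5, chr2:14522654-14522714, minus strand: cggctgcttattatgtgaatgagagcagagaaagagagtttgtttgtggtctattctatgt
MYC2 summit at LHCB6, chr1:5446501-5446561, minus strand: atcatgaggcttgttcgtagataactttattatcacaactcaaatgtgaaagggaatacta
MYC2 summit at RBCS3B, chr5:15377131-15377191, minus strand: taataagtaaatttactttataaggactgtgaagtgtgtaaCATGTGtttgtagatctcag
MYC2 summit at PSAE1, chr4:14205044-14205104, minus strand: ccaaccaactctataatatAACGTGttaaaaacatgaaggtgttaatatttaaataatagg

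None of the 4 had CACGTG, the G-box that MYC2 is known to bind, within 50 bp of the summit, against 27.3% of all 3464 summits. PSAE1 had CACGTT, which stands on the opposite strand in the line above, found at 20.2% of summits, and RBCS3B had CACATG, also on the opposite strand, found at 24.2%. The G-boxes of the RBCS2B and PSBQ1 promoters shown above were not under a peak.

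Genes that work beside the members were counted in lists chosen by function. Their counts are to be read against the 14.2% of all genes and 19.6% of acetylated genes with a time course loss. Of 9 electron transport and ATP synthase genes, 8 (88.9%) overlapped a loss, with DRT112 (plastocyanin) at a log2 change of -0.30 and PETC, the Rieske subunit, and FED A (ferredoxin) at -0.24 each. PETE1, a second plastocyanin gene, overlapped a loss at -0.10 and a MYC2 peak. The ninth gene, FNR2, a ferredoxin-NADP reductase, overlapped a gain of 0.17 in the time course and of 0.09 in the large-scale experiment, and a MYC2 peak. Of 14 Calvin cycle genes 6 (42.9%) overlapped a loss and 1 a gain, with RPE at -0.35, PRK (phosphoribulokinase) at -0.25 and SBPASE at -0.19. Of 11 chlorophyll synthesis genes 3 (27.3%) overlapped a loss and 2 a gain, and PORB, a protochlorophyllide reductase, had the largest change of these lists downwards at -0.45, followed by GUN5, a magnesium chelatase subunit, at -0.31 and HEMA1, a glutamyl-tRNA reductase, at -0.19. The MYC2 peaks of that list were at HEMA1, with a loss, and at GUN4, with a gain of 0.15.

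The remaining lists held called changes in both directions. Of 5 chlorophyll breakdown genes, 2 overlapped a time course loss, 2 a time course gain and 2 a large-scale gain. CLH1 (chlorophyllase) overlapped gains of 0.54 in the time course and 0.62 in the large-scale experiment and a MYC2 peak, and ACD1, which opens the chlorophyll ring, overlapped a time course gain of 0.28. NYC1, a chlorophyll b reductase, overlapped a loss at -0.20. PPH, a pheophytinase, overlapped a loss of -0.12 in the time course, a gain of 0.17 in the large-scale experiment and a MYC2 peak. Of 9 other photosystem and photoprotection genes 3 (33.3%) overlapped a loss, led by PSB27 at -0.32, and AT1G76570, a relative of the light-harvesting genes, overlapped gains of 0.77 and 0.65 and a MYC2 peak. ELIP1 and ELIP2, early light-induced proteins, had H3K27me3 and no H3K9ac or H3K4me3 domain. Of 5 regulators of chloroplast genes, GNC and CGA1 overlapped a loss at -0.18 and -0.24, HY5 one at -0.17, and GPRI1, which also had a MYC2 peak, and GLK2 a gain at 0.19 and 0.09.

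Replicated libraries existed for the untreated comparison of protocols. H3K9ac over IgG was higher in PHILO than in regular libraries at 45 of 46 members (limma, Benjamini-Hochberg adjusted p under 0.05 over 17949 genes), a call made at 84.6% of all genes, with 0 members called lower, against 0.217%, and every member's difference above 0. LHCB4.3 missed the threshold (difference 0.35 ± 0.14 SE, adjusted p = 0.057, limma). At all 46 members the lowest PHILO library lay above the highest regular library, as it or the reverse did at 90.3% of genes. The median difference was 0.63 on the log2 scale at members and 0.54 over all genes. The counts of both regular libraries agreed within plain sampling noise over identical domains (chi-square per degree of freedom 0.90), whereas those of PHILO libraries did not (1.45 to 1.94), and with the regular libraries counted as 1 sample limma called 41 of 46 members higher, against 69.7% of all genes. With 3 libraries against 2, an exact permutation test cannot give a p under 0.1, and although the study describes such libraries as biological replicates, the labels do not name their cultures.

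The largest differences were at LHCB2.3, LHCB1.4 and PSAH2, the first of them low in the regular and near the middle of the members in the PHILO libraries. LHCB2.3 had log2 folds of 2.197, 2.368 and 2.371 in the PHILO libraries and of 0.961 and 0.834 in the regular libraries, a difference of 1.41 ± 0.10 (SE, limma adjusted p = 0.0027). Its domain was 800 to 1000 bp wide in PHILO lists and 2000 and 2400 bp in regular lists, so the folds were taken over unequal stretches. LHCB1.4 had 1.69, 1.82 and 2.39 in the PHILO libraries and 0.96 and 0.91 in the regular libraries, with a domain of 800 bp in the third PHILO list and of 4000 to 4600 bp in the other 4 lists. PSAH2 had 2.39, 2.47 and 2.52 in the PHILO libraries and 1.15 and 1.76 in the regular libraries, with domains of 2800 to 3000 bp in PHILO lists and of 6200 and 3200 bp in regular lists. Once each library was centred on its median gene, limma called 1 member higher, LHCB2.3 (0.87 ± 0.09 SE, adjusted p = 0.031), and 0 lower, with 9 members at an unadjusted p under 0.05. The centred shares over all genes were 0.173% higher and 0.267% lower.

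**Figure D5:**
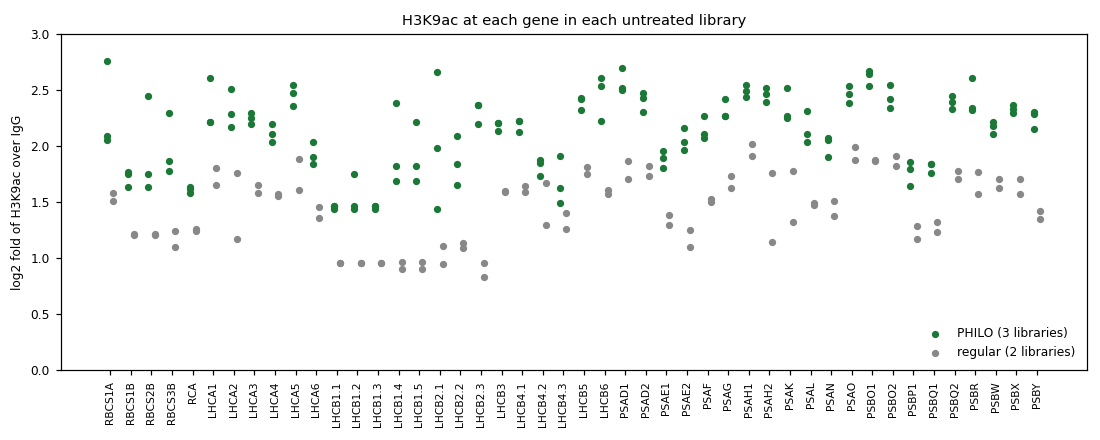
Log2 fold of H3K9ac over IgG at each of the 46 genes in the 3 PHILO (green) and 2 regular (grey) untreated libraries, each point 1 library. PHILO points lie above regular points at every gene, and the lowest value in each of the 5 libraries is at an LHCB1 or LHCB2 gene.

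Counts could be set against each other directly only where a domain had the same ends in all 5 lists. This held for LHCB4.1 alone among the members, with 4645, 3469 and 3229 reads in PHILO libraries and 3835 and 3579 in regular libraries. Scaled by TMM over such domains its log2 difference was -0.0039 (edgeR quasi-likelihood, adjusted p = 0.96), where 23.7% of 1167 domains were called in either direction. With ends allowed to differ by up to 200 bp, 16 members could be compared, and 2 were called higher in PHILO libraries and 0 lower, where 8.57% of 7629 domains were called higher. PSAD1 had 1421, 1122 and 1053 reads in PHILO libraries and 1111 and 976 in regular libraries, a log2 difference of 0.18 (edgeR adjusted p = 0.042). PSBO1 had 4880, 3662 and 3483 reads in PHILO libraries and 3687 and 3453 in regular libraries, a log2 difference of 0.15 (edgeR adjusted p = 0.013).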

How the data were processed

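Per the study's methods and notes, Bowtie2 2.4.1 placed the authors' reads on TAIR10, and the authors called histone domains with epic2 in 200 bp bins (listed in the notes as SICER 0.0.52) and MYC2 peaks with MACS2 2.2.7.1. The handling of reads with several matches is not given in the sources used here. The deposited domain lists hold read counts of treatment and control, not normalized, a log2 fold that the authors scaled by library totals, and an FDR derived from p-values, limited to 0.05. The deposited MYC2 list gives a fold ratio and −log10 p and q values. Files named for comparisons give the authors' pooled counts and their log2 folds of JA over control, or of control over JA for losses, whose sign was turned here to JA over control.

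The pooled lists were used with no test. Of several domains at a gene, the one with the longest overlap gave its value. Coordinates are 1-based TAIR10, used with RefSeq TAIR10.1 genes and sequence for the 5 nuclear chromosomes. Per-gene log2 folds of 5 libraries were tested with limma 3.58.1, and counts of identical domains with edgeR 4.0.16 (TMM, quasi-likelihood) under R 4.3.3. DESeq2 1.42.0 was run on the same counts for comparison. Both fits were tested on simulated data. Intervals are exact Clopper-Pearson at 95%. Copies were sought with blastn 2.17.0 (95% identity, 100 bp or more). Python 3.11.15, pandas 2.3.3, numpy 2.4.6, scipy 1.17.1 and matplotlib 3.10.9 were used. Counts of the 2 regular libraries differed by less than plain sampling noise (chi-square per degree of freedom 0.90), or by more (1.19) once each position is taken to count once. Their totals differ, so they were kept as 2 replicates and also counted as 1.

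The members and gene lists were chosen with earlier results of these data known. Named genes were, in each role, the 2 with the largest loss and those with the highest and lowest pooled H3K9ac, and every member with a gain, a MYC2 peak or H3K27me3. In the other lists up to 3 genes with the largest JA change were named, and FNR2, PETE1, GUN4, PPH, ELIP1, ELIP2, HY5 and GLK2 after their values were seen, likewise the members without H3K36me3 and PSAD1 and PSBO1 between protocols. Alternatives were other overlap, fold and FDR limits, other scalings, and libraries left out. Averaging both regular libraries and the order of levels in each single library were added after seeing the data. The comparison of gene pairs was not among the planned results.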

Additional observations from a re-analysis of the deposited data

Results flagged for a closer look

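The lists also held rows for the chloroplast genome, where the plastid-encoded partners of the photosystem and Rubisco subunits lie, and which were left out of every comparison. The time course gain list had a single chloroplast row with 214342 reads after JA and 174093 in the control, a log2 change of 0.32. The large-scale gain list had 1 row with 220029 reads after JA and 167442 in the control, a log2 change of 0.47. Histones are absent from chloroplasts. The loss list had no chloroplast row.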

How the results depend on the processing

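The count of members with a JA loss stayed at 23 (50%) with the gene body alone, against 12.7% of all genes. It was also 23 with at least 200 bp of overlap (13.5% of all genes) and with at least 50% of the body covered (8.35%). It was 4 of 46 (8.7%) with an absolute log2 fold of at least 0.25 (6.52% of all genes) and 7 (15.2%) with an FDR of 1e-05 or less (6.09%), which keep fewer domains by construction. The single gain was lost under both limits (0 and 0 members), against 7.87% and 5.42% of all genes. H3K27me3 over the body alone was found at 5 members (10.9%), against 28.7% of all genes. Other limits left the mark and MYC2 counts within 1.5 times.

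Between protocols, members called higher were 1 with centred libraries, 43 with the replicate block (83.4% of all genes), 41 with both regular libraries averaged (69.7%), and 41 to 45 with each library left out (64.8% to 82.8%), where a lone regular library is assumed to vary like the others. Called domains were 276, with 93 in DESeq2, 1213 of 7629 with ends within 200 bp, 220 with the replicate block, and 80 to 402 with a library left out (80 and 113 without regular replicate 1 and 2, 402 without PHILO replicate 1). Replicate numbers were not taken as pairs in the main fit. Deviations of same-numbered libraries correlated at 0.01 and 0.02. With 2 regular libraries these deviations mirror each other, so the check cannot show whether libraries were made in pairs.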
